A study of Homo sapiens with 18 samples.

Results

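The comparison described here is that of low with no ERN2 induction in cells under acute ER stress. Its members are the 3 libraries titled Low ERN2, stress and the 3 titled No ERN2, stress, which make 6 of the 18 RNA-Seq libraries of the series, and every gene that could be tested between them. HEK293doxERN2 cells are human embryonic kidney cells that carry a FLAG-tagged ERN2 transgene under doxycycline control. In both groups thapsigargin was given at 200 nM for 3 hours. The low group had received 10 ng/mL doxycycline over 24 hours, and the other group had received none. Each result therefore contrasts doxycycline with its absence as well as higher with lower ERN2 levels, and these cannot be told apart in the 6 libraries. The labels do not say that replicates came from separate cultures, so p-values measure the spread between these libraries, which may be technical.

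ERN2 (IRE1β) is a sensor kinase and endoribonuclease of the endoplasmic reticulum (ER) that is normally found in mucous epithelial cells, whereas its paralogue ERN1 (IRE1α) is expressed widely. On activation IRE1 proteins excise a short intron from XBP1 mRNA, which then encodes a transcription factor for genes of ER folding, translocation and vesicle transport, and they can also cleave other mRNAs at the ER, a process called RIDD (regulated IRE1-dependent decay). Thapsigargin blocks the calcium pump of the ER and so activates the ER stress sensors.

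IRE1 enzymes cut RNA in small hairpins, and the hairpins of XBP1 and of the classical RIDD substrate BLOC1S1 are shown so that they can be set beside those found in mRNAs that fell at the low dose. Capitals mark the 7-base loop with the pattern CNGCAGN, and the flanking bases in lower case are the inner part of the stem. In ITGB1 the outermost base on each side does not pair. The sites are read 5′ to 3′ from GENCODE 29 transcripts on GRCh38, and each lies in 1 exon. The XBP1 pair lies in coding exon 4 of 5 at chr22:28796143-28796161 and chr22:28796117-28796135, both on the minus strand. The BLOC1S1 site is in coding sequence of exon 4 of 4 at chr12:55719583-55719601 on the plus strand.
XBP1 upstream loop: ctgagtCCGCAGCactcag
XBP1 downstream loop: gcacctCTGCAGCaggtgc
BLOC1S1: gggcagCTGCAGTctgccc
GALNT10: ccccggCTGCAGCttgggg
PROS1: tggcagCTGCAGTctgtca
CD59: ttctggCAGCAGCctggag
ITGB1: caaccaCAGCAGTtggttt
The GALNT10 hairpin lies in coding sequence of exon 9 of 12 (chr5:154409740-154409758, plus strand) and has a stem of 7 pairs, counting G with T as a pair. The PROS1 hairpin lies in the 3′ UTR in exon 15 of 15 (chr3:93873593-93873611, minus strand) and has 9 pairs. The hairpins of CD59 (exon 4 of 4, chr11:33710139-33710157, minus strand) and ITGB1 (exon 4 of 16, chr10:32929837-32929855, minus strand) are coding and have 6 and 5 pairs. Genes that rose also held such hairpins, among them TMEM258 in its 3′ UTR and SEC23B in its 5′ UTR, each with 5 pairs. All of these are matches of letters and not measured cleavage sites.

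The libraries held between 20776594 and 24413882 reads on genes in the low group and between 17450852 and 18691097 in the uninduced group, and 14509 genes passed the filter on low counts. Thapsigargin-treated libraries with the same replicate number deviated from their group means together, so the replicate number was also entered in their fit, and values with it are called paired here. The vehicle-treated libraries of the same number did not (mean correlation −0.05, against 0.54 with thapsigargin), and their calls are from fits without it. The extraction note in the labels names colon crypts, whereas all 8 HEK293 markers were tested, with summed levels of 1879 to 2064 CPM (reads scaled to the size of the library) in uninduced and 1990 to 2345 CPM in induced libraries. Of 16 colon markers 4 were tested, and the summed level of the list was 43.4 to 48.7 CPM and 35.0 to 38.3 CPM in the same order, with CDX1, TFF3, CLCA1 and ZG16 at 0 reads in all 6 libraries. The stem cell marker LGR5 alone in that list was called lower, and the part of colon-marker levels in other results was not tested. Of the HEK293 markers CDH2 alone was called, lower by 0.27 in the paired fit, and paired DESeq2 did not call it (adjusted p = 0.017). The 8 immune and endothelial markers summed to between 11.0 and 12.2 CPM in all 6 libraries, and 0 of the 2 tested were called.

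ERN2 itself was higher in every induced library, although the degree of induction was uneven. Its level was 14.2, 10.4 and 12.0 CPM in uninduced replicates 1, 2 and 3 and 32.1, 53.9 and 112 CPM in induced replicates 1, 2 and 3. The groups did not overlap, and induced replicate 3 lay far above replicate 1. The log2 fold change was 2.27 with a standard error (SE) of 0.20 in the paired fit (adjusted p = 4.15e-07, edgeR quasi-likelihood test), and 2.42 without the pairing, where it was not called (adjusted p = 0.29). At 100 ng/mL, for orientation, the level with thapsigargin was 272, 175 and 175 CPM. The counts do not separate transgene from endogenous ERN2 reads.

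The genes called lower in the paired fit included genes of secreted, membrane and lysosomal proteins, such as GRN, ITGB5 and CTSA, and those called higher included genes of the translocation and vesicle machinery, such as SEC61B, SSR2 and ARF1. In that fit 367 genes were called lower (2.53% of those tested) and 197 higher (1.36%) at an adjusted p under 0.01. The median log2 fold change was −0.46 among genes called lower and 0.30 among those called higher. Without the pairing, which is the design of the study, edgeR called 0 genes (0%), the smallest adjusted p being 0.29. In that fit 434 (2.99%) were lower and 178 (1.23%) higher at an unadjusted p under 0.05. Together these are 612 of the 14509 genes, less than the share of 0.05 that would arise with no change. DESeq2 without pairing, the test that the study used, called 2 genes higher and 37 lower, and all 39 were among the paired calls. The 3 induced libraries lay below all 3 uninduced ones for 783 genes (5.4%) and above them for 668 (4.6%). If the groups did not differ and the 6 libraries were exchangeable, both directions together would have a probability of 0.1. These shares over all genes are near that value. Libraries of the same number deviated together and so were not exchangeable, which makes the value a rough guide only. Of the paired calls, 247 of the 367 lower and 41 of the 197 higher were separated in this way.

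Transcript length moved with these calls in both directions, and base composition with the higher calls. Median GC content was 55.2% in genes called higher, 49.5% in those called lower and 49.3% over all genes. Genes called higher had a median transcript length of 1680 bases and those called lower of 4383 bases, against 3188 bases over all genes with a transcript in GENCODE 29, which 190 of the 197, 346 of the 367 and 13533 of the 14509 had. When the trend of each library with length and GC content was removed in the paired fit, 192 genes were called lower (1.32%) and 90 higher (0.62%), of which 191 and 73 were among the paired calls. Whether the trend is technical was not tested. Of the 67 named genes called in the paired fit 55 were called in this corrected fit, and among those that were not are SEC61G, EDEM2, FKBP2, DNAJC3, ANGPTL2, GAPDH and GUSB, whose changes below are from the paired fit. DESeq2 with the same pairing called 51 of the 67, and among those that it did not call are CALR, DNAJC3, SLC7A5, EDEM2, ITGB1, FN1, CTSA, COL6A1, COPE, GUSB, LGR5 and RDH11, while PROS1 and ANGPTL2 had no adjusted p. With both libraries of replicate 1, 2 or 3 left out, 67, 39 and 49 of the 67 were called.

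**Figure D1:**
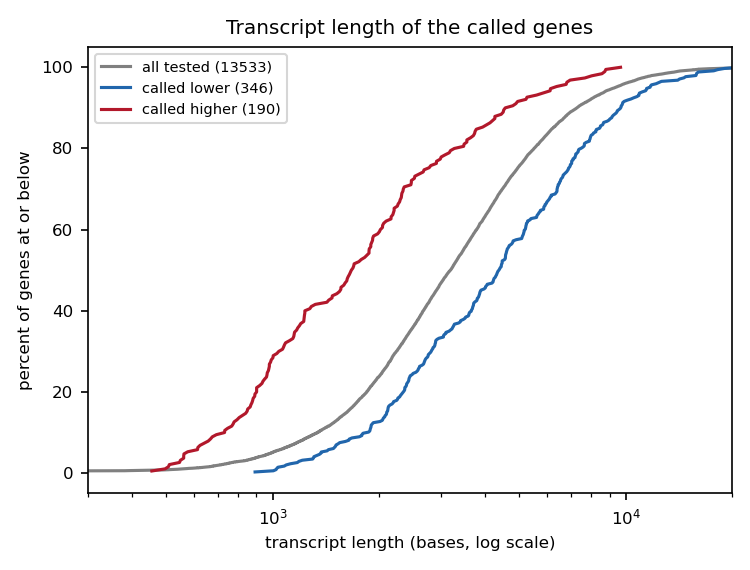
Share of genes (y axis, percent) whose transcript has at most a given length (x axis, bases, log scale), for all 13533 genes with a transcript, the 346 called lower and the 190 called higher in the paired fit. The curve of higher genes lies to the left, with a median of 1680 bases, and that of lower genes to the right, with a median of 4383 bases.

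Under the heading of the IRE1 axis, ERN2 apart, no gene was called. The paralogue ERN1 had 16.5, 17.5 and 13.6 CPM without and 11.2, 14.8 and 10.2 CPM with doxycycline, a paired log2 fold change of −0.41 ± 0.11 (SE, n = 3 pairs, edgeR adjusted p = 0.018). XBP1, the substrate and effector of the pathway, had 464, 494 and 486 CPM against 459, 435 and 369 CPM, a paired log2 fold change of −0.21 ± 0.06 (edgeR adjusted p = 0.026). Both were lower in all 3 pairs, and neither reached the threshold. Gene counts do not show XBP1 splicing. BLOC1S1, at 3.79, 5.39 and 4.73 CPM against 3.56, 3.59 and 3.25 CPM, missed it too (edgeR adjusted p = 0.16 in the paired fit), at a level where few reads were available. BHLHA15 (MIST1), a transcription factor of secretory cells, had 1.68, 7.31 and 2.45 CPM against 2.73, 8.14 and 5.15 CPM, and although all 3 pairs were higher with doxycycline it was not called (edgeR adjusted p = 0.081).

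**Figure D2:**
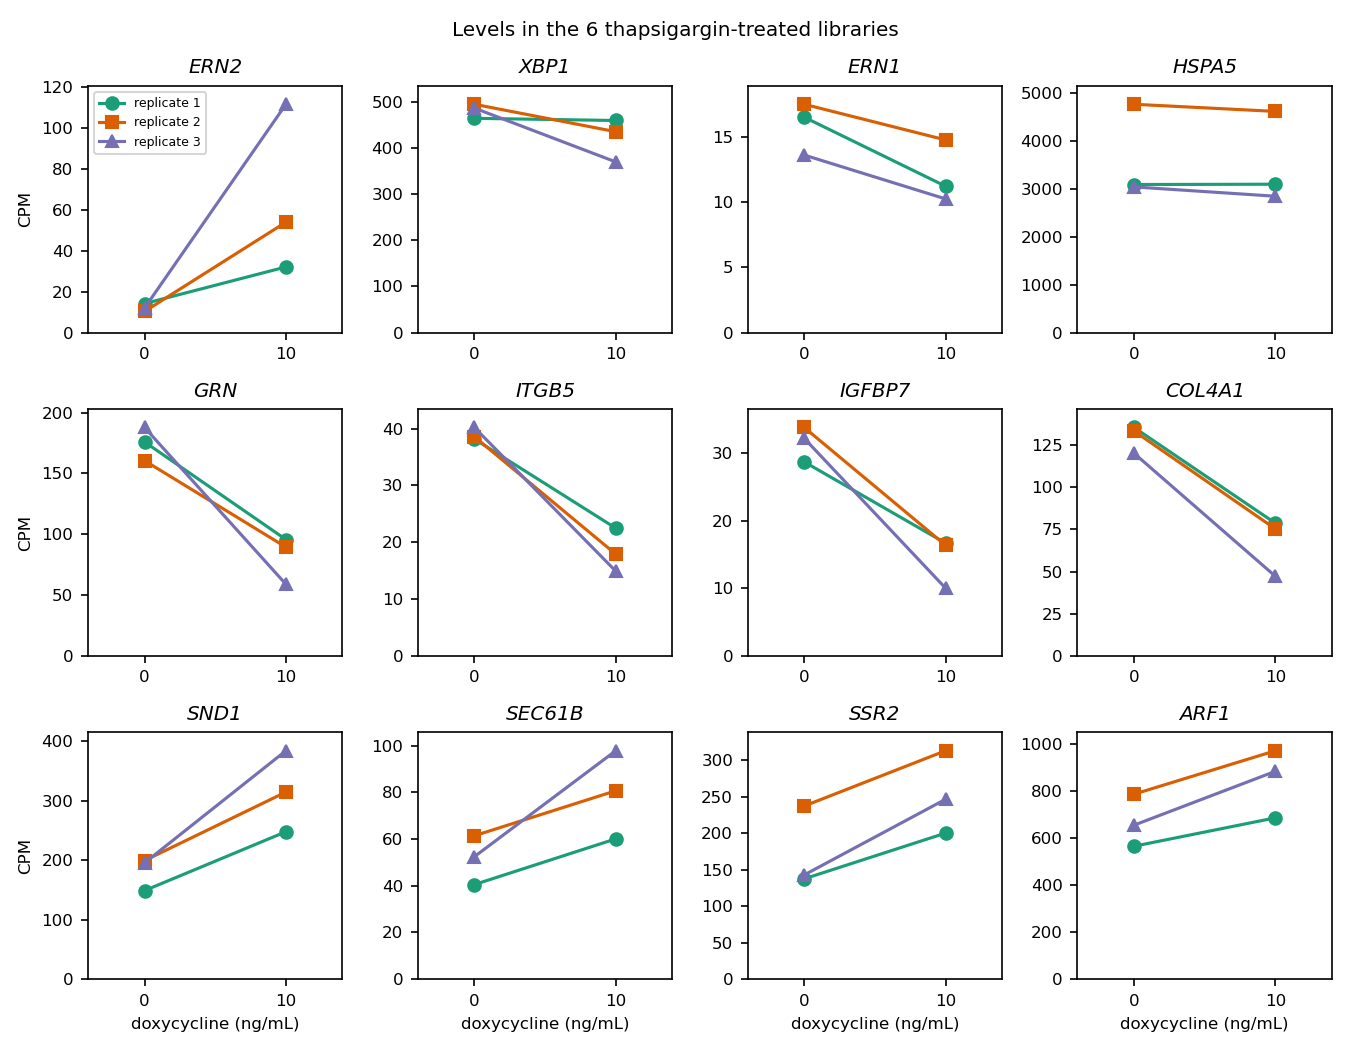
CPM of 12 genes (y axes from 0) in the 6 thapsigargin-treated libraries at 0 and 10 ng/mL doxycycline (x axes), with lines joining libraries of the same replicate number. ERN2, SND1, SEC61B, SSR2 and ARF1 were higher and GRN, ITGB5, IGFBP7 and COL4A1 lower in all 3 pairs, while XBP1, ERN1 and HSPA5 were not called.

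The general stress output was largely without calls. HSPA5 (BiP), the main ER chaperone, had 3096, 4773 and 3046 CPM without and 3102, 4624 and 2851 CPM with doxycycline, with replicate 2 high in both groups. Its paired log2 fold change was −0.06 ± 0.04 (edgeR adjusted p = 0.39). DNAJB9 (ERdj4), a cochaperone induced through XBP1, gave 0.03 ± 0.07 and DDIT3 (CHOP), a transcription factor downstream of PERK, 0.01 ± 0.06. Neither was called, and both changes were smaller than their SE.

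Among 25 tested ER chaperones and folding enzymes 1 was called higher and 2 lower, with a median log2 fold change of 0.03 against −0.00 over all genes. Over all genes 1.36% were called higher and 2.53% lower. FKBP2, an ER prolyl isomerase, rose by 0.37. CALR (calreticulin), a calcium-binding lectin chaperone, fell by 0.43, from 2514, 3164 and 2861 CPM to 2186, 2601 and 1685 CPM. DNAJC3 (p58IPK), an inhibitor of PERK, fell by 0.46 and had its lowest level, 133 CPM, in induced replicate 3. In the ER-associated degradation list 1 of 22 was called higher and 3 lower, among them EDEM2, a mannosidase-like protein, higher by 0.39, and the lectin OS9, which fell by 0.26. Without replicate 2 or without replicate 3 of both groups 0 members of this list were called in either direction. With the length and GC trend removed CALR was called lower and DNAJC3, FKBP2 and EDEM2 were not called, while paired DESeq2 did not call CALR (adjusted p = 0.077).

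The PERK-ATF4-CHOP list had 1 of 25 members higher and 1 lower, a median of 0.03, and as the lower member the amino acid transporter SLC7A5, which fell by 0.37. Shares over all genes were 1.36% higher and 2.53% lower. Its members DDIT4 and CHAC1 gave 0.25 and 0.24 and were not called (edgeR adjusted p = 0.017 and 0.023 in the paired fit). Of 19 immediate early genes 0 were called, and of 17 cytosolic chaperones HSPA1B alone was higher, by 0.41. Among 12 commonly used reference genes 4 were higher and 1 lower, with a median of 0.15. GAPDH rose by 0.25 and PGK1 by 0.25, both glycolytic enzymes, so several of the higher calls below were not much larger than those of the reference genes. GUSB, a lysosomal glucuronidase that is also a reference gene, fell by 0.34. With the length and GC trend removed 2 reference genes were called higher and 0 lower, GAPDH (edgeR adjusted p = 0.011) and GUSB (0.010) no longer being called, and 0 were called in either direction without replicate 2 or without replicate 3. The PERK-ATF4-CHOP list then had 0 higher and 1 lower, and 0 calls without replicate 2 or without replicate 3.

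Of 26 tested targets of XBP1, 8 were called higher and 1, DNAJC3, lower, and the list had a median log2 fold change of 0.21 against −0.00 for all genes, with 1.36% and 2.53% called higher and lower over all genes. Without replicate 2 or without replicate 3 of both groups 4 of the 26 were called higher. The lists share members, so their counts are not separate results. DNAJC3 is also in the chaperone list and SEC61B is in both the XBP1 and the translocon list. With each gene counted once, 30 genes of all lists were called higher and 38 lower. The median of the reference genes was 0.15. The 12 members of the translocon and TRAP list, which make up the channel for nascent proteins and its partner complex, had 6 higher and 1 lower, with a median of 0.26, and 4 and 3 higher without replicate 2 and without replicate 3. SEC61B, the beta subunit of the channel, had 40.5, 61.4 and 52.5 CPM without and 60.1, 80.7 and 97.9 CPM with doxycycline. Each induced library exceeded its partner, although the groups overlapped, and the paired log2 fold change was 0.61 ± 0.08 (edgeR adjusted p = 5.68e-05). SSR2 (TRAP beta) had 138, 237 and 143 CPM against 200, 313 and 247 CPM, a change of 0.56 ± 0.06. SEC61A1, the pore subunit, rose by 0.33 and SEC61G, the gamma subunit, by 0.61, the latter not called after the length and GC trend was removed (edgeR adjusted p = 0.016).

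The signal recognition particle, which delivers nascent chains to the channel, had 0 of 8 members called, with 8 of 8 above 0 and a median of 0.13. For this list and the coat genes, the shares over all genes were 1.36% higher and 2.53% lower. Of 15 COPII genes, whose products coat vesicles leaving the ER, 5 were higher and 0 lower, 10 were above 0 and 5 below, and the median was 0.11. Without replicate 2 of both groups 1 COPII gene was called higher and without replicate 3, 2. SEC24D, a cargo-binding coat subunit, had 70.2, 156 and 60.7 CPM against 106, 187 and 90.8 CPM and rose by 0.46 ± 0.07. SEC13, PREB, SEC24C and SEC23B rose by 0.38, 0.34, 0.30 and 0.26. COPI coats carry vesicles back from the Golgi, and of 16 COPI and ARF genes 7 were higher, 0 lower and 16 above 0, with a median of 0.25. Without replicate 2 or without replicate 3 of both groups 3 of them were called. COPE gave 0.48 ± 0.08 and COPG1 0.39 ± 0.06. ARF1, the GTPase that recruits the coat, had 566, 788 and 656 CPM against 687, 973 and 885 CPM and rose by 0.33 ± 0.05. With the length and GC trend removed 4 of the 16 COPI and ARF genes and 5 of the 15 COPII genes were called higher, and the translocon and TRAP list had 4 higher and 0 lower. In that fit 0.62% of all genes were called higher.

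**Figure D3:**
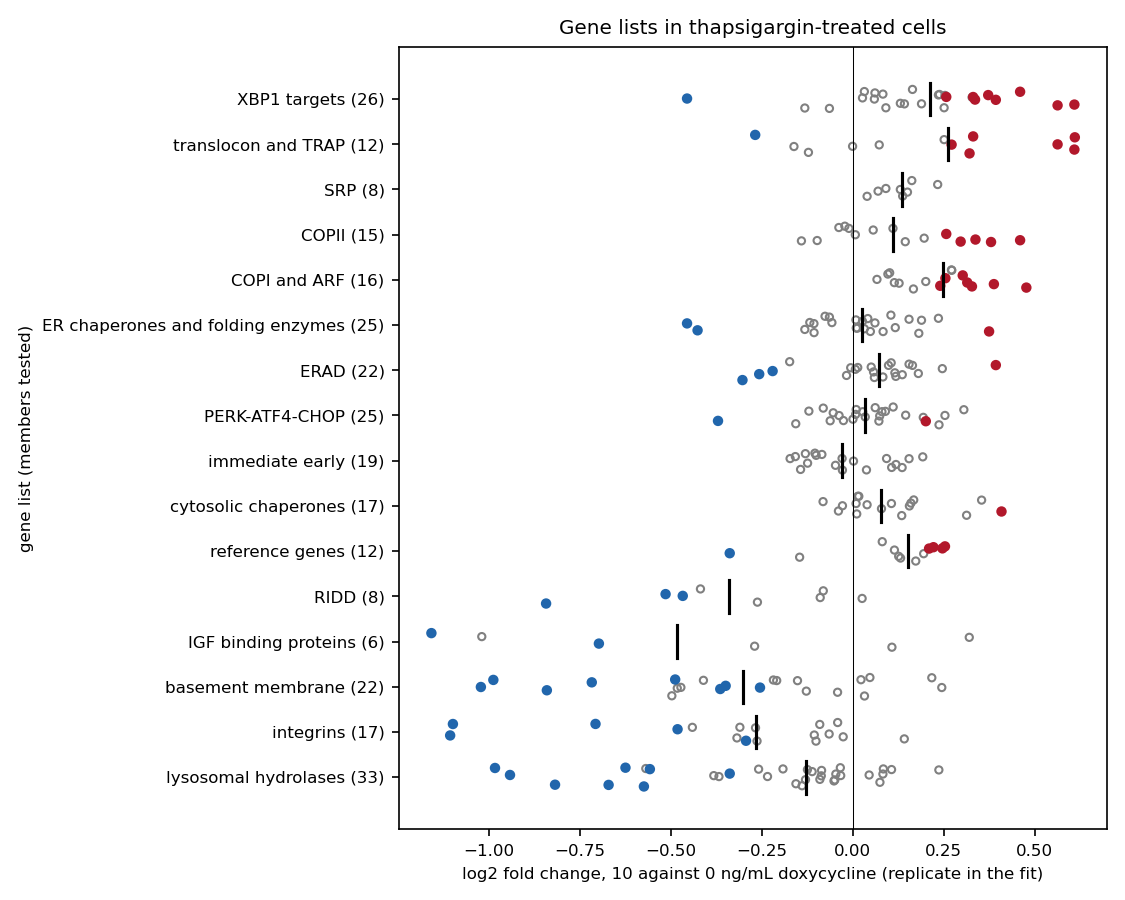
Paired log2 fold change (x axis, 10 against 0 ng/mL doxycycline with thapsigargin) of each tested member of 16 gene lists (y axis, members tested in brackets); filled points were called higher (red) or lower (blue), open grey points were not called, and black bars are list medians. The COPI and ARF list lies wholly above 0, whereas basement membrane genes, integrins and lysosomal hydrolases reach to about −1 and their called members are all lower.

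The promoters of genes called higher were searched for elements bound by ER stress factors, and 3 that hold one are printed, from vesicle coat genes called higher. In each, capitals mark ACGTGG, the core of the element recognised by XBP1, on either strand. The sequences are from RefSeq on GRCh38.p14 and run from 250 bases before to 50 bases after the start of the gene. SEC13 reads CCACGT, the same core on the other strand.
SEC13 (chr3:10321063-10321362, minus strand): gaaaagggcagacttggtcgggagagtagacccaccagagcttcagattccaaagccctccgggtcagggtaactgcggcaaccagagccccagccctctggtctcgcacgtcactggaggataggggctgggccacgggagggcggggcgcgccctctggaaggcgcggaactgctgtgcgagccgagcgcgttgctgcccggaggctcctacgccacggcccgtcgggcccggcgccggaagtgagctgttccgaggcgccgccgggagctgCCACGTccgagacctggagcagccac
COPG1 (chr3:129249356-129249655, plus strand): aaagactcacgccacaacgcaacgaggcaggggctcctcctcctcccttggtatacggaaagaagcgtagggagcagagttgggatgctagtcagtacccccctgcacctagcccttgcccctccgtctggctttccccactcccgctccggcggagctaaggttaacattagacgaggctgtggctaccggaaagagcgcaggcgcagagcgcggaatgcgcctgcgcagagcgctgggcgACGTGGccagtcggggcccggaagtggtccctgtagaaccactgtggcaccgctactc
SEC24C (chr10:73744122-73744421, plus strand): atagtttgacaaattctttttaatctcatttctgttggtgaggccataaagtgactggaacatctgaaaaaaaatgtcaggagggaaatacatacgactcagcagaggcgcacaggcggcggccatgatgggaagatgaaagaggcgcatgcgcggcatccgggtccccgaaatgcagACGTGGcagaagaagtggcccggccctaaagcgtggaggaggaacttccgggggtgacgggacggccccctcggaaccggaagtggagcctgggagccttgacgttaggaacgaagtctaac
The core occurred in 38 of the 170 promoters matched for genes called higher (22.4%), in 47 of the 311 matched for genes called lower (15.1%), in 1454 of the 11385 distinct promoters matched for all genes tested (12.8%) and in 9.72% of all 35116 promoters. The longer ER stress element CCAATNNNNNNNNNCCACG occurred in 1 of the 170, 1 of the 311, 0.123% of the 11385 and 0.0769% of all. The promoters of the COPII genes PREB and SEC23B and of SEC61B, SSR2, SND1 and TMEM258, which also rose, hold neither. That of DNAJB9, which was not called, holds the core 2 times, and that of CALR, which fell, holds the longer element. These shares describe letters in the windows and show no binding.

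The genes that rose most were headed by SND1, which encodes an RNA-binding nuclease-domain protein. It had 149, 199 and 196 CPM without and 248, 314 and 384 CPM with doxycycline, so that the groups did not overlap, and its paired log2 fold change was 0.78 ± 0.06 (edgeR adjusted p = 1.03e-07). TMEM258, a subunit of the oligosaccharyltransferase that glycosylates nascent chains, had 19.98, 24.7 and 27.6 CPM against 28.0, 40.7 and 49.8 CPM, a change of 0.68 ± 0.09. PRDX1, a cytosolic peroxidase, rose by 0.57 ± 0.07, from 113, 119 and 131 CPM to 150, 175 and 224 CPM. MYL6, a myosin light chain, rose by 0.53 and CDKN1A (p21), an inhibitor of the cell cycle, by 0.38. LGALS1, MAGEE1 and PDLIM4, which were among the 10 higher genes with the smallest unadjusted p-values in the unpaired fit, gave 0.64, 0.70 and 0.67 at 3 to 8 CPM and were not called in either fit.

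The genes that fell most included several of secreted and membrane proteins. GRN (progranulin), a secreted and lysosomal glycoprotein, had 176, 161 and 188 CPM in uninduced and 95.6, 89.4 and 58.9 CPM in induced libraries. ITGB5, an integrin beta subunit for matrix adhesion, had 38.2, 38.6 and 40.2 CPM against 22.5, 17.9 and 14.9 CPM. The groups were clearly separated in both genes, with the lowest value in induced replicate 3, where ERN2 was highest. The paired log2 fold changes were −1.13 ± 0.10 for GRN and −1.10 ± 0.10 for ITGB5 (edgeR adjusted p = 4.15e-07 and 7.56e-07). IGFBP7, a secreted binder of insulin-like growth factors, went from 28.7, 33.8 and 32.2 CPM to 16.7, 16.4 and 10.0 CPM, a change of −1.16 ± 0.12.

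Proteins of the Golgi and beyond were represented among the same genes. GALNT10, which starts O-linked glycans, fell by 1.03, GOLM1, a Golgi membrane protein, by 0.97, and TGOLN2 (TGN46), which cycles through the trans-Golgi network, by 0.79. RNF167, a ubiquitin ligase of endosomes and lysosomes, fell by 0.79, the membrane protein APMAP by 0.89, the ER protein CNPY2 by 0.77 and the collagen COL12A1 by 0.69. In the unpaired fit these 7 genes and ITGB5, GRN and IGFBP7 had the smallest p-values among lower genes, each with an adjusted p of 0.29, which does not pass. Of the secreted proteins ANGPTL2, angiopoietin-like, fell by 1.51 ± 0.28 at 0.534 to 7.15 CPM, and PROS1 (protein S), an anticoagulant, by 1.12 ± 0.16, from 12.0, 12.8 and 9.23 CPM to 7.94, 5.32 and 2.91 CPM.

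Of 22 basement membrane genes 8 were called lower and 0 higher, 17 were below 0 and 5 above, with a median log2 fold change of −0.30 beside −0.00 over all genes. The share called lower over all genes was 2.53%, which also stands beside the integrin and IGF-binding protein counts. COL4A1, a chain of the network-forming collagen IV, had 135, 133 and 120 CPM without and 78.6, 75.3 and 47.2 CPM with doxycycline, a change of −0.99 ± 0.08 (edgeR adjusted p = 1.99e-07). LAMC1, the laminin gamma 1 chain, fell by 1.02 ± 0.08, and fibronectin (FN1), from 2127, 2023 and 1981 CPM to 1427, 1343 and 789 CPM, by 0.84 ± 0.09. Without replicate 2 of both groups 5 of the basement membrane genes were called lower and without replicate 3, 6. Of 17 integrin subunits, receptors for such matrix, 5 were lower and 0 higher, and 2 and 4 in the same leave-outs. ITGB1, the most widely shared beta subunit, went from 290, 297 and 231 CPM to 194, 146 and 69.3 CPM, a change of −1.11 ± 0.12, and ITGA6, a laminin receptor subunit, fell by 0.48. LAMC3 and ITGA3 gave −0.50 and −0.32 and were not called. Among 6 IGF-binding proteins IGFBP7 and IGFBP2 (−0.70) were called, while IGFBP6 and IGFBP5 gave −1.02 and −0.27 without a call.

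Lysosomal hydrolases, which reach their compartment through the ER and Golgi, had 8 of 33 members lower and 0 higher, against 2.53% lower over all genes. Their median was −0.13, and 5 and 7 were lower without replicate 2 and without replicate 3. CTSA, a protective carboxypeptidase, had 82.4, 72.7 and 100 CPM against 55.6, 44.99 and 30.7 CPM, a change of −0.98 ± 0.13. PPT1, a thioesterase, fell by 0.94 ± 0.10 and the sialidase NEU1 by 0.57. With the length and GC trend removed 7 of the 33 hydrolases, 7 of the 22 basement membrane genes and 3 of the 17 integrins were called lower, and none of these lists had a higher call in that fit. Over all genes 1.32% were called lower there.

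Known RIDD substrates showed 3 of 8 lower and 0 higher, with a median of −0.34, beside 2.53% lower and 1.36% higher over all genes. TAPBP (tapasin), which loads peptides on class I molecules, had 92.3, 85.5 and 88.0 CPM against 61.2, 54.4 and 36.1 CPM, a change of −0.84 ± 0.09. CD59, a surface inhibitor of complement, fell by 0.52 ± 0.07 and COL6A1, a collagen VI chain, by 0.47 ± 0.08. All 3 were separated between groups, as 5.4% of all genes tested were in that direction. So was BLOC1S1, lower in all 3 pairs, which did not pass the threshold. Levels of intact and cleaved mRNA are not distinguished by these counts, and fewer cells of a type and less RNA per cell cannot be told apart in bulk libraries.

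Hairpins of the XBP1 kind, with a loop CNGCAGN closed by at least 5 pairs, were present in the transcripts of 47 of the 346 genes called lower (13.6%), 6 of the 190 called higher (3.16%) and 796 of all 13533 (5.88%). Since the lower genes had longer transcripts, the number per 10 kilobases is also given, which was 0.295 in lower, 0.140 in higher and 0.159 in all genes. Among genes whose protein carries an amino-terminal hydrophobic segment the values were 0.299 for the 213 called lower and 0.158 for the 1926 others. The plain hexamer CTGCAG, counted without a stem, was about as frequent per length in lower as in all genes, at 7.78 and 8.13 per 10 kilobases, and 9.76 in higher genes. It differs from the hairpins in its letters too, since it matches only loops that begin with CT and not those of CD59 and ITGB1. The part of the stem in the hairpin values was therefore not tested. Most of the genes called lower held no such hairpin in the transcript searched.

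An amino-terminal hydrophobic segment, as in signal peptides and signal anchors, directs a nascent chain to the ER, and the share of genes called lower was compared between classes of protein with and without it. The segment was defined as a window of 12 residues within residues 2 to 45 with a mean Kyte-Doolittle hydropathy of at least 2, and a later segment as a window of 19 residues with a mean of at least 1.6. Of 935 genes with the amino-terminal segment only, 91 (9.73%) were called lower and 8 higher, and of 1204 with both segments 122 (10.1%) were lower and 5 higher. Of 2328 with a later segment only, 88 (3.78%) were lower and 26 higher. Of 8320 genes with neither, 43 (0.517%) were lower and 149 (1.79%) higher. Most genes of every class were not called, and the shares below 0 were 61.7%, 70.1%, 57.7% and 44.9% in this order. The median paired log2 fold changes in this order were −0.08, −0.12, −0.04 and 0.02. The median transcript length, in the same order, was 2871, 3442, 3921 and 3109 bases, and with the length and GC trend removed 63, 67, 34 and 14 genes were called lower.

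The response to the same dose in vehicle-treated cells provided genes chosen on other libraries. At 10 ng/mL in vehicle 20 genes were called higher (0.138%) and 8 lower (0.0552%), and at 100 ng/mL 121 higher (0.838%) and 1082 lower (7.49%). All 8 genes lowered at 10 ng/mL in vehicle were also called lower with thapsigargin in the paired fit, with a median log2 fold change of −0.90 beside −1.07 in vehicle. They include PROS1, ITGB5, COL4A1 and LAMC1, as well as GGH, a lysosomal gamma-glutamyl hydrolase (−0.82), the Golgi ion transporter TMEM165 (−0.81), RDH11, a retinol dehydrogenase of the ER (−0.56) and TGOLN2. Of the 20 raised genes 12 were called higher with thapsigargin and 0 lower, with a median of 0.36 beside 1.01 in vehicle. The vehicle medians of both sets come from the libraries that chose the genes, which favours large changes there. Their distance from the thapsigargin medians is therefore no measure of a weaker effect with thapsigargin.

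The values of the 20 raised genes in the 2 treatments are given side by side for several of them. Here too the vehicle values come from the libraries that chose the genes. SND1 gave 0.78 with thapsigargin and 0.99 with vehicle, TMEM258 0.68 and 0.96, SEC61B 0.61 and 0.87, SSR2 0.56 and 1.02, and GMPPA, which takes part in making mannose donors for glycans, 0.51 and 1.12. DNAJB9 gave 0.03 and 1.24, FICD, an ER enzyme that AMPylates BiP, 0.14 and 1.27, and DERL3, a degradation factor, 0.05 and 0.88. CREB3L2, an ER stress transcription factor, gave 0.00 and 0.77, XBP1 −0.21 and 0.84, and BHLHA15 0.54 and 2.56. In uninduced cells DNAJB9 stood higher with thapsigargin than with vehicle, with 10.8, 12.9 and 11.2 CPM in vehicle and 70.6, 98.7 and 58.2 CPM with thapsigargin.

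**Figure D4:**
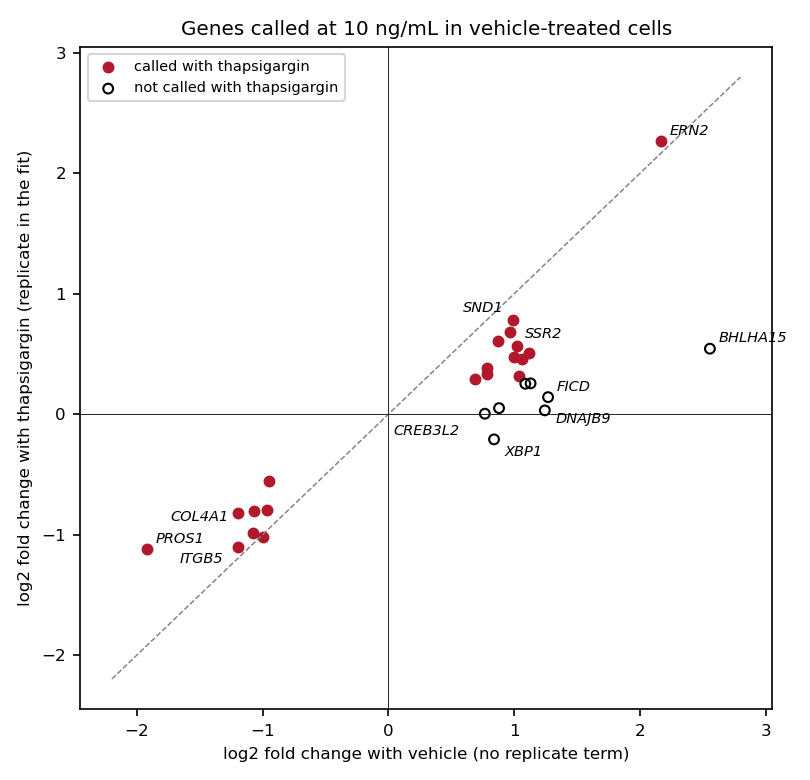
Log2 fold change at 10 against 0 ng/mL doxycycline with vehicle (x axis) and with thapsigargin (y axis, paired fit) for the 28 genes called in vehicle-treated cells; filled red points were also called with thapsigargin, and the dashed line marks equal changes. The 8 lowered genes are all filled and below 0 on both axes, with PROS1 at −1.92 and −1.12, while XBP1, DNAJB9, FICD and BHLHA15 are open and lie below the line. The genes were chosen on the vehicle libraries of the x axis, which favours large values on that axis.

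The difference between the doxycycline effects with and without thapsigargin was tested directly in 12 libraries, and 0 of 14857 genes passed (0%). At an unadjusted p under 0.05 there were 664 genes, less than the share of 0.05 that would arise with no difference. The smallest p was that of XBP1, with 75.4, 78.0 and 77.1 CPM at 0 and 139, 130 and 145 CPM at 10 ng/mL in vehicle and the flat or falling values given above with thapsigargin. The log2 difference was −1.04 ± 0.14 (edgeR adjusted p = 0.028), and −1.04 with 1 replicate term common to both treatments (adjusted p = 0.0060), although the vehicle libraries were not paired by number. With a separate replicate term in each treatment XBP1 did not pass (edgeR adjusted p = 0.031). FICD followed with −1.13 ± 0.19 (edgeR adjusted p = 0.21). The difference for ERN2 was 0.25 ± 0.56 and for GRN −0.40 ± 0.26, and neither passed the threshold.

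The wider set of genes lowered at 100 ng/mL in vehicle was also low here. Of the 1079 such genes that were tested with thapsigargin, 1022 had a log2 fold change below 0 (94.7%, against 50.8% of all genes), with a median of −0.27, and 311 were called lower and 0 higher. Seen from the other side, 311 of the 367 genes called lower (84.7%) and 28.7% of the 1082 are shared, while 7.44% of all genes tested belong to the 1082. Of the 121 genes raised at 100 ng/mL 109 were above 0, with a median of 0.19, and 29 were called higher, which is 14.7% of the 197. The median difference of the lowered set was −0.12, −0.22 and −0.43 in replicate pairs 1, 2 and 3, in the same order as the level of ERN2 in the induced library, and 3 pairs allow no test of such an order. The uninduced vehicle libraries served the 100 ng/mL contrast and not the one described here, so these values share no library.

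**Figure D5:**
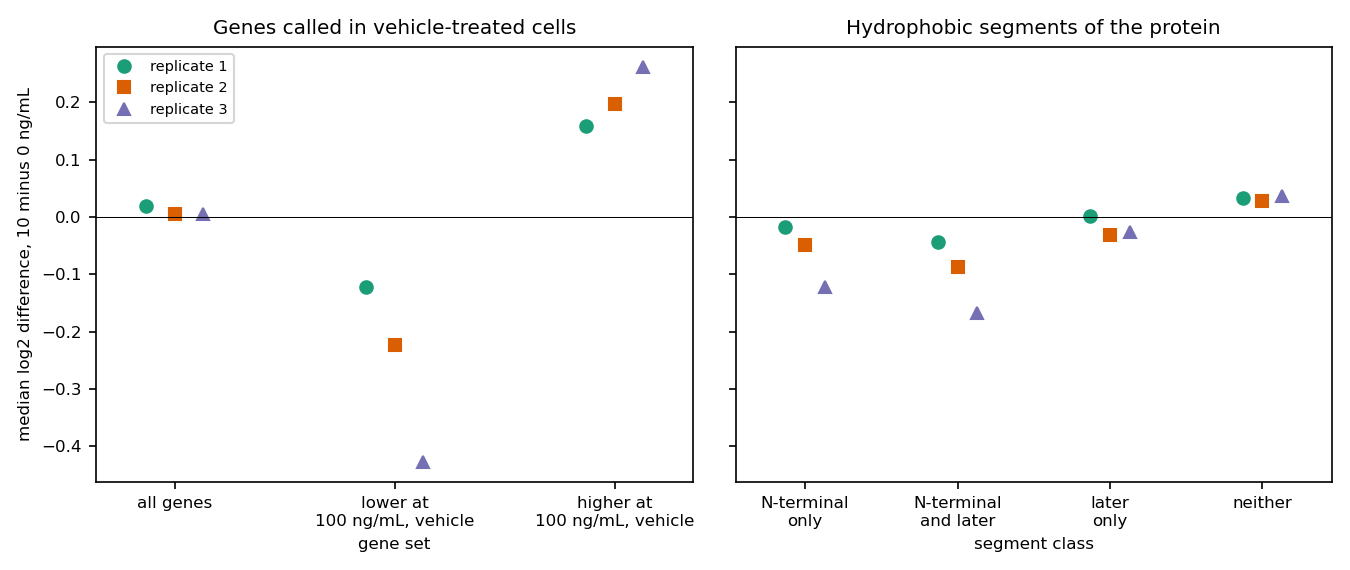
Median log2 difference in CPM (y axes, 10 minus 0 ng/mL doxycycline with thapsigargin) in each replicate pair, on the left for all genes and for genes called lower or higher at 100 ng/mL in vehicle, and on the right by hydrophobic segments of the protein. The lowered set lies at −0.12, −0.22 and −0.43, and both classes with an amino-terminal (N-terminal) segment lie below 0 in all 3 pairs.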

How the data were processed

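RNA-Seq of HEK293doxERN2 cells was used, with the 6 libraries of the comparison and, for the vehicle contrasts, 9 others. The authors aligned reads with STAR to hg38 (the submitters' processing notes; versions, annotation and strand setting not given in the sources used here) and deposited raw counts per gene symbol, 25435 rows for 18 libraries, of which 28 symbols had become dates and 0 were mitochondrial. Genes were filtered with filterByExpr (minimum count 10), scaled by TMM and tested with edgeR 4.0.16 (quasi-likelihood, R 4.3.3), Benjamini-Hochberg adjusted, at a threshold of 0.01, without a replicate term as in the study. CPM are TMM-scaled over all 18 libraries, and pair differences are log2(CPM + 0.5). SE is the log2 fold change divided by the root of F. The code was tested on simulated data.

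The labels number replicates 1 to 3 in each group. In the thapsigargin-treated libraries, deviations from group means correlated at 0.53, 0.47 and 0.62 for same numbers and at −0.26 on average for others, so the number was taken to pair them, and the paired (replicate block) values are given beside the unpaired. Deviations within a group cancel, so the −0.26 follows in part from the values for same numbers. In the vehicle libraries the same-number correlations were −0.20, −0.28 and 0.35, so the number was not taken to pair those. There uninduced replicate 2 and induced replicate 1 correlated at 0.50, so a value of that size also occurred without a shared number. The pairing of the thapsigargin-treated libraries comes from the data and the shared numbers. Library pairs within a group differed beyond sampling noise. An exact permutation of 3 against 3 cannot go below 0.1.

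The members and lists were chosen with earlier results of these data known. Named genes are the IRE1 and stress genes, the 10 smallest p-values in each direction without pairing, the 8 largest paired calls in each direction, up to 4 genes per list, the 3 smallest interaction p-values and genes called in vehicle; some are not reported here. Transcripts, and proteins translated from them, came from GENCODE 29 (13533 of 14509 symbols matched, 12787 proteins classified), and promoters from RefSeq (11482 matched). Alternatives were DESeq2 1.42.0, other scalings and filters, all libraries, the replicate block and libraries left out; the paired fit with DESeq2, other scalings, no filter, a length and GC trend removed and pairs left out was added after the data were seen. Figures were drawn with matplotlib 3.10.9.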

Additional observations from a re-analysis of the deposited data

Results flagged for a closer look

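XBP1 was flagged because the effect of doxycycline on its level differed between vehicle- and thapsigargin-treated cells when 1 replicate term common to both treatments was in the fit, with a log2 difference of −1.04. Without the replicate number the difference was of the same size but did not pass the threshold (edgeR adjusted p = 0.028). In the fit with a separate replicate term in each treatment 0 genes passed (XBP1 adjusted p = 0.031), the numbers do not pair the vehicle libraries, and DESeq2 without a replicate term called XBP1 and FICD.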

How the results depend on the processing

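The number of genes called without pairing, 0, was 39 with DESeq2, 1 without a filter on low counts and 564 with the replicate block, and 0 with RLE size factors, library totals, all 18 libraries, a threshold of 0.05 and each of the 6 libraries left out (range 0 to 0). Among listed genes the count went from 0 to 10 with DESeq2, 1 without the filter and 68 with the replicate block, and among named genes from 0 to 19, 1 and 67 (0 to 0 with libraries left out). The paired count of 564 was 519 with RLE size factors, 497 with library totals, 352 with DESeq2, 282 with the length and GC trend removed, 1072 without the filter and 1331 at 0.05. It was 1580 without replicate 1 of both groups, 124 without replicate 2 and 221 without replicate 3, with 774 higher and 806 lower, 17 and 107, and 41 and 180 in turn. The ER chaperones went from 1 higher and 2 lower to 4 and 2, and the PERK-ATF4-CHOP list from 1 and 1 to 4 and 2, without replicate 1. For the difference between treatments, 0 became 2 with DESeq2, 1 without the filter, 1 with the replicate block and 1 at 0.05, and stayed within 0 to 0 with libraries left out. HSPA5 (range −0.29 to 0.19 with libraries left out) turned to 0.19, 0.02 and 0.08 without uninduced replicate 2, induced replicate 1 or induced replicate 3, and DNAJB9 (range −0.14 to 0.25) to −0.03, −0.14 and −0.10 without uninduced replicates 1 or 3 or induced replicate 2, neither being called. Medians of genes lowered in vehicle (−0.26; −0.36 to −0.16 with libraries left out) and of amino-terminal segment genes (−0.10; −0.14 to −0.05) moved by less than the spread of the pairs. The causes were not tested. Precision was limited by 3 libraries per group.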

Other observations

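Some families were picked by symbol because of their values, so their counts are a description only. Of 78 cytosolic ribosomal protein genes 20 were called higher and 0 lower, with a median log2 fold change of 0.17, and of 72 subunits of the respiratory chain and ATP synthase 13 were higher and 0 lower, with a median of 0.23. Shares over all genes were 1.36% higher and 2.53% lower. Their median transcript lengths were 1029 and 1015 bases, and with the length and GC trend removed 9 of the 78 and 5 of the 72 were called higher. The part of length in these calls is not separated further. Of 20 PIG genes, most of which act in making GPI anchors, 2 were lower, and PIGT, a subunit of the transamidase that attaches the anchor, had 182, 177 and 184 CPM without and 117, 97.8 and 63.7 CPM with doxycycline.

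ELANE (neutrophil elastase) had 323, 5807 and 25 reads in the 3 uninduced thapsigargin-treated libraries, 0, 2 and 1 reads in the induced ones and at most 3 reads in any of the 15 other libraries of the series. It was the only gene with at least 100 reads in a library of that group and at most 10 reads in each other library. Its fitted fold change depends on the prior count and is not given. ELANE was not set aside. It was called lower in the paired fit (edgeR adjusted p = 6.28e-18) and is counted among the 367 lower genes and the 67 named genes called. The source of its reads was not tested.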
